A study of Glycine max with 8 samples.

Results

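Distant heart-only sites are genomic regions called as enriched with an antibody against a WOX9-like protein in soybean seeds with heart-stage embryos. They were not called in seeds with globular embryos, and they lay away from the sites called in all 4 libraries. A region qualified when both heart libraries had a peak in it, neither globular library had one, and the nearest region called in all 4 libraries was more than 10000 bp away on the same chromosome, measured from edge to edge. This rule kept 2952 of 75046 regions (3.93%). They were 31.9% of the 9254 heart-only regions. Another 6293 heart-only regions lay within 10000 bp of a region of all 4 libraries and are called flanking, and 9 lay on scaffolds that held no region of all 4 libraries and entered neither class. The members were chosen by the peak calls of the 4 libraries and by this distance, so their presence at one stage and their absence at the other are a description and not a test.

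WOX9 is one of the WUSCHEL-related homeobox proteins, transcription factors of plants that bind DNA through a homeodomain. In Arabidopsis, WOX9 is known for a part in patterning the early embryo and in keeping meristem cells dividing. The globular embryo is a ball of cells with no cotyledons, and at the heart stage the cotyledon lobes grow out and the future shoot and root poles become distinct. A binding site called at one of these stages is a place on the genome where chromatin with the protein was enriched. It does not show that a nearby gene is regulated.

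Chromatin immunoprecipitation with sequencing was carried out on soybean seeds (Glycine max, Williams 82), taken whole, with a rabbit polyclonal antibody raised against a peptide of the protein. The globular group held seeds of 1.0 to 1.5 mm and the heart group seeds of 1.7 to 2.1 mm, from untreated plants of the same cultivar grown in a greenhouse. Each stage had 2 ChIP libraries, whose peak lists are used here, and 2 input libraries, which were not analysed here. The labels do not say whether replicates came from separate plants, and whole seeds hold seed coat and endosperm beside the embryo, so the sites cannot be placed in one seed tissue. The genome build of the coordinates is not given in the sources used here, so regions are given by chromosome and position and were not assigned to genes, and no sequence is shown.

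The globular lists had peaks in 43507 (replicate 1) and 43027 (replicate 2) regions, and the heart lists in 59528 (replicate 1) and 48071 (replicate 2). The files give no read totals. Fold and p of a peak imply, under the formulas of the peak caller, the number of reads piled up at the summit and the background around it. The floor of that background, in reads, rises with depth and also with the fragment length the caller used, which is not given in the sources used here. It was 4.34 (replicate 1) and 15.2 (replicate 2) at the globular stage and 9.09 (replicate 1) and 9.05 (replicate 2) at the heart stage. The globular values thus lay on either side of the heart values, with a wide gap between them. In heart replicates 1 and 2, 91.4% and 91.7% of the peaks rested on a single flat background at this floor, against 12.8% and 15.1% in globular replicates 1 and 2. The way the background was built thus differed between the stages, and the floor differed between the globular libraries. Their part in the absence of a globular call was not tested. The peak names of globular replicate 2 contain BR1 and Input, unlike those of the other lists, and no label says whether this points to the control or to the replicate. Each heart-only call rests in part on that list.

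The strongest distant heart-only regions were 457 to 1092 bp wide, all above the median width of 419 bp of the members. They are ranked here by the worse of the 2 heart rank percentiles, where 0 is the strongest peak of a list by p and 100 the weakest. The first was a region of chromosome 1 between 51260935 and 51261482. Its fold enrichment over background was 13.6 in heart replicate 1 and 12.5 in heart replicate 2, and both globular libraries had no peak there. Its −log10 p was 96.3 and 78.8, which placed it at the percentiles 6.41 and 8.89 of the heart lists. The summits of the heart libraries were 15 bp apart, at 51261226 and 51261241. The nearest region of all 4 libraries was 12196 bp away, and the nearest globular peak, of replicate 1, was 7524 bp away, counted here and below to the edge of the region that holds it.

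A region of chromosome 2 between 43431127 and 43431708 followed, with folds of 15.0 and 12.5 in heart replicates 1 and 2 and percentiles of 4.60 and 8.89. A region of chromosome 13 between 32765463 and 32766554 was the third, with folds of 12.0 and 12.4 and percentiles of 5.37 and 9.16. These 3 were the members found in the top 10% of both heart lists. Over all regions called in both heart libraries that share was 10.6%, so the members were rarely among the strongest heart sites. In heart replicate 1 all 3 rested on a background above the flat level, which held for 9.79% of all members there. In heart replicate 2 they rested on the flat background. The chromosome 13 region was the widest of the 3, at 1092 bp, and its nearest peak of either globular library was 18454 bp away, in a region called in all 4 libraries.

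Read numbers could be recovered where the peak rested on the flat background. A region of chromosome 18 between 3092415 and 3093474 had 184 reads at its summit in heart replicate 1 and 120 in heart replicate 2, with folds of 17.6 and 11.8. A region of chromosome 2 between 5116251 and 5116753 had 188 and 111 reads, with folds of 18.01 and 10.9. A region of chromosome 8 between 45190324 and 45190781 had 163 and 103 reads, with folds of 15.6 and 10.1. All 3 had more reads in heart replicate 1 than in heart replicate 2, although the floor of the background was close to 9 reads in both. The 3 regions differed in their surroundings. The chromosome 18 region had a peak of globular replicate 2 at 573 bp, the chromosome 2 region had none of either globular library within 11894 bp, and the chromosome 8 region was 62673 bp from a region of all 4 libraries.

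Places 7 to 10 went to a region of chromosome 13 (43143835 to 43144291), one of chromosome 12 (38275866 to 38276337), one of chromosome 3 (41381978 to 41382456) and a second one of chromosome 8 (46383302 to 46383778). Their folds were between 10.2 and 13.4 in heart replicate 1 and between 8.97 and 9.75 in heart replicate 2. The chromosome 3 region also rested on a background above the flat level in heart replicate 1. Summits of the heart libraries differed by at most 23 bp in the first 10 regions, and in the chromosome 12 region they fell on the same base. Along their chromosomes 9 of the 10 lay in the outer 20% at either end, and the third, on chromosome 13, lay at 71.6% of the chromosome's extent. Of all members on chromosomes 61.4% lay in these outer parts, and of regions of all 4 libraries 69.9% did.

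Most members were weak heart sites. The fold at the summit had a median of 4.22 in heart replicate 1, with a range from 2.12 to 18.01, and of 3.72 in heart replicate 2, with a range from 2.06 to 12.5. In reads at the summit, the medians were 43 in replicate 1 (2663 members on the flat background) and 38 in replicate 2 (2721 members), against 87 and 72 in regions of all 4 libraries. The members ranked at median percentiles of 61.8 and 74.2 in heart replicates 1 and 2, and 2167 of them (73.4%) fell in the weaker 50% of both lists. Just 27 members (0.915%) were within the top 25% of both lists. Flanking regions were alike, with 75.6% in the weaker 50% and 0.477% in the top 25% of both lists. In regions of all 4 libraries these shares were 13.7% and 43.2%. Absence of a globular call chose the members, so their low rank is part of how the class was formed.

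The folds of the members were set beside the smallest fold that was called at the floor of the background in each globular list. That fold was 2.81 in globular replicate 1, from 14 reads, and 2.04 in globular replicate 2, from 32 reads. In 96.4% of the members both heart folds reached the first value, as in 95.7% of flanking regions and 99.3% of regions of all 4 libraries. In 100% of the members both reached the second, which lies below the smallest folds called at the floor in the heart lists themselves (2.42 and 2.45) and so was nearly met by being called. The first value lies only a little above those heart folds, so being called also went far toward meeting it. Because the backgrounds differed between the stages, folds are not on one scale across stages, and no globular value exists at the members themselves.

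**Figure D1:**
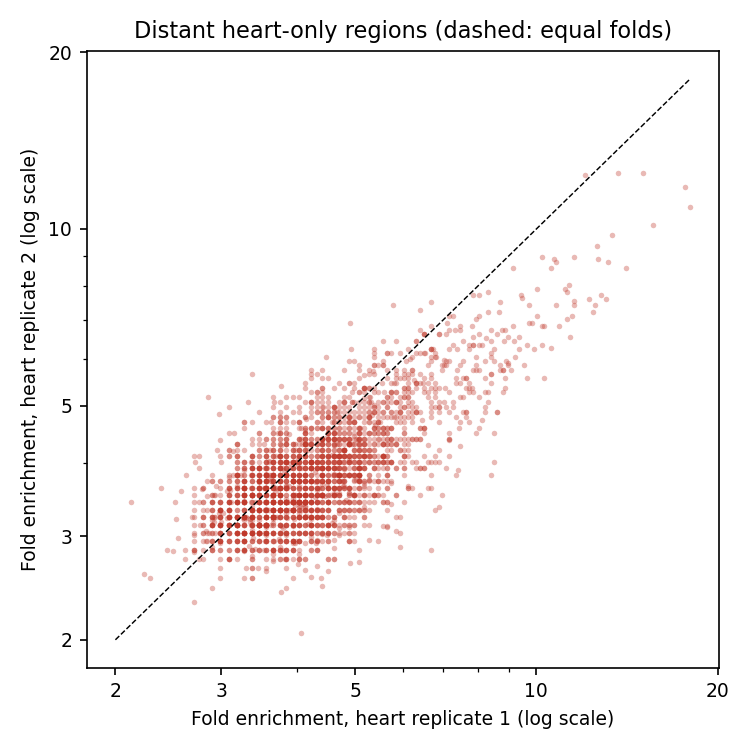
Fold enrichment at the summit of the 2952 distant heart-only regions in heart replicate 1 (x axis) and heart replicate 2 (y axis), both on log scales, 1 point per region, with equal folds on the dashed line. Most points sit near the medians of 4.22 and 3.72, the grid spacing is 1 read, and the points above a fold of 10 in replicate 1 mostly lie below the line.

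The heart libraries placed and ordered the members less closely than the shared sites. The summits of the heart libraries were a median of 41 bp apart in the members and 27 bp in regions of all 4 libraries. They were within 50 bp of each other in 59.1% of the members and in 73.8% of regions of all 4 libraries. Flanking regions were like the members, with a median of 41 bp and 58.3% within 50 bp. The Spearman correlation of fold between the heart libraries was 0.62 over the 2952 members, 0.62 over the flanking regions and 0.95 over regions of all 4 libraries. These correlations run across regions of the same libraries, and the members cover a narrower range of folds. The fold was higher in heart replicate 1 than in replicate 2 in 2146 members (72.7%), in 72.8% of flanking regions and in 86.2% of regions of all 4 libraries. Nearly all members (99.1%) held 1 peak from each heart library.

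The members were narrow sites. The median width of a member was 419 bp, with a range from 250 to 2596 bp, against 428 bp for flanking regions and 758 bp for regions of all 4 libraries. In heart replicate 1 the median peak width was 387 bp in the members and 393 bp in flanking regions, and in heart replicate 2 it was 330 bp and 332 bp. The difference was thus -6 and -2 bp, with a mean of -4 ± 2.83 bp (SD, n = 2 heart libraries). It was -12 bp without globular replicate 2 and -2.5 bp without globular replicate 1. It was -10 bp with summits within 100 bp joining peaks, -8.75 bp with lists of equal length, -9 bp with a distance limit of 20000 bp and -0.25 bp with 5000 bp. The middle 50% of the members had peaks of 328 to 478 bp in replicate 1, a far wider range than this difference.

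Distance from shared sites made little difference to the strength of a heart-only site. The median percentile of the members minus that of the flanking regions was -2.75 points in heart replicate 1 (61.8 against 64.5) and -1.38 points in heart replicate 2 (74.2 against 75.6), so the members were slightly stronger in both. The mean difference was -2.07 ± 0.967 points (SD, n = 2 heart libraries). An exact two-sided permutation of signs over the 2 libraries gives p = 0.5, the smallest p that this design allows, so it cannot reach 0.05. In reads, the medians were 43 against 42 in replicate 1 and 38 against 37 in replicate 2, a difference of 1 read, which is the smallest step. In replicate 1 the members ranked stronger on 9 of 20 chromosomes, weaker on 6 and equal on 5, and in replicate 2 stronger on 11, weaker on 5 and equal on 4. The difference was 0 without globular replicate 2, 0 without heart replicate 2, and 0 when peaks were joined by summits within 100 bp. It was -0.366 points with lists of equal length and -3.22 points with a distance limit of 20000 bp.

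Within the members strength also had no steady course with distance. From 10 to 20 kb (1337 members) the median percentiles were 61.8 in heart replicate 1 and 75.6 in heart replicate 2. From 20 to 50 kb (1070 members) they were 61.8 and 71.9, from 50 to 100 kb (292 members) 61.8 and 75.6, and beyond 100 kb (253 members) 64.5 and 71.9. Median width was 425, 417, 407.5 and 390 bp in the same order. The most remote sites were thus the narrowest of these groups, and neither weaker nor stronger in both libraries.

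**Figure D2:**
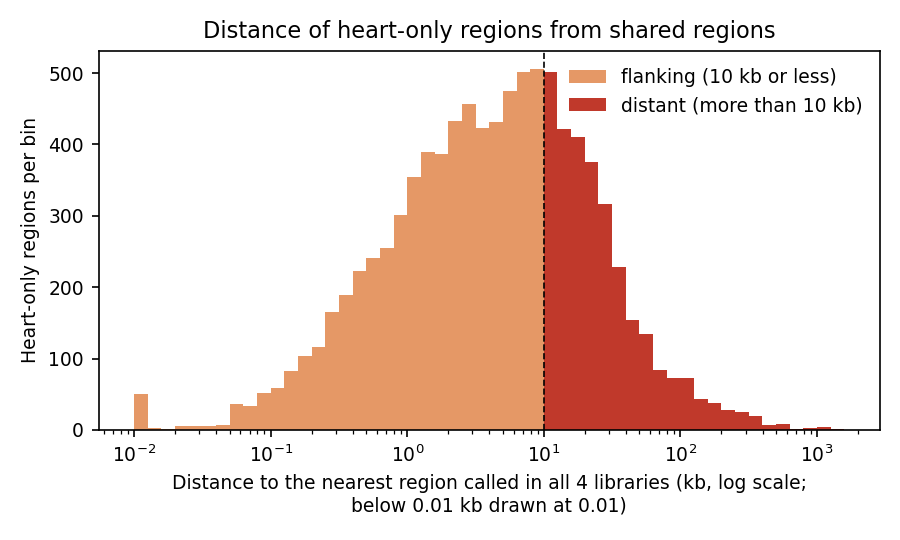
Number of heart-only regions (y axis) by distance to the nearest region called in all 4 libraries (x axis, kb, log scale), with flanking regions left of the dashed 10 kb limit and distant ones right of it. The members run from just above 10 kb to 1428 kb with a median of 21.4 kb, and the distribution has no gap at the limit.

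The limit of 10000 bp cuts through a continuous distribution. The distances of the members to the nearest region of all 4 libraries had a median of 21372 bp, with 50% of them between 14174 and 38047 bp. The 3 members just inside the limit were on chromosome 13 (25216738 to 25217177, at 10015 bp), chromosome 19 (45225699 to 45226151, at 10021 bp) and chromosome 1 (48810935 to 48811975, at 10035 bp). Their folds were 4.51, 5.18 and 4.03 in heart replicate 1 and 3.72, 4.98 and 3.13 in heart replicate 2. The 3 heart-only regions just outside it were on chromosome 17 (11547565 to 11547992, at 9995 bp), chromosome 6 (9445493 to 9446082, at 9985 bp) and chromosome 2 (3981573 to 3982047, at 9980 bp). Their folds were 3.18, 4.32 and 4.60 in heart replicate 1 and 3.23, 4.40 and 3.23 in heart replicate 2. The folds on the 2 sides overlapped.

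The members lay in the chromosome middles more often than flanking or shared sites. Of the 2943 members on chromosomes, 1807 (61.4%, Wilson 95% interval 59.6 to 63.1%, counting error only) lay in the outer 20% at either end. The share was 74.6% for flanking regions and 69.9% for regions of all 4 libraries. It was lower in the members than in the flanking regions on 20 of 20 chromosomes. Shared sites are sparser in the middles, so a region there is more often far from one, and the rule by itself links distance with position. This difference is therefore a description of the class.

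When each chromosome was cut into 10 equal parts, the sixth part held 3.23% of the members, 1.64% of flanking regions and 2.28% of regions of all 4 libraries. The first and last parts held 15.7% and 17.6% of the members, against 21.1% and 22.9% of flanking regions. The share in the outer parts fell along the members' own distances, from 72.9% at 10 to 20 kb and 64.2% at 20 to 50 kb to 38.4% at 50 to 100 kb and 15.5% beyond 100 kb. Members in the outer and the middle parts had like strength. Their median percentiles were 61.8 and 74.3 in heart replicates 1 and 2 in the 1807 outer members, and 64.5 and 71.9 in the 1136 middle members.

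**Figure D3:**
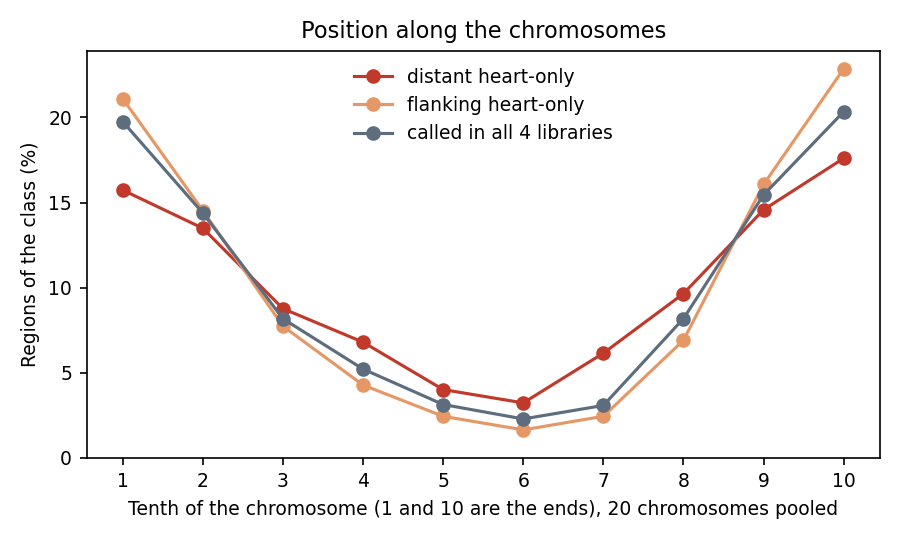
Share of the regions of each class (y axis, %) in 10 equal parts of the chromosome (x axis), 20 chromosomes pooled, with 1 line for distant heart-only, flanking heart-only and shared regions. All 3 lines dip in the middle, and the distant regions have the shallowest dip, with 3.23% in the sixth part.

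Every chromosome held such sites, in numbers from 125 on chromosome 17 to 177 on chromosome 8, and 9 members lay on scaffolds. Their density ran from 2.56 per Mb on chromosome 4 to 3.71 per Mb on chromosome 8. Regions of all 4 libraries varied more, from 21.7 per Mb on chromosome 18 to 43.7 per Mb on chromosome 13. Distant regions made up 24.3% of the heart-only regions on chromosome 13, which has the densest shared sites, and 40.8% on chromosome 16, which has 23.4 shared regions per Mb. On chromosome 13, 27.5% of the members lay in the outer parts, the lowest share of the 20 chromosomes, and on chromosome 4 79.1% did, the highest. Flanking regions had their lowest and highest outer shares on the same chromosomes, at 40.9% and 94.2%.

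The most remote members were in chromosome middles and were mostly weak. The farthest from any region of all 4 libraries lay on chromosome 19 between 20125464 and 20125935, at 1428 kb. It had 32 reads at the summit in each heart library and folds of 3.18 and 3.23. It was not alone, since a peak of globular replicate 2 lay 292 bp from it and one of globular replicate 1 at 1286 bp. A region of chromosome 5 (17003600 to 17004046) at 1166 kb had 54 and 45 reads and folds of 5.27 and 4.50.

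The other members beyond 1000 kb were on chromosome 4, and one of them was a strong site. It lay between 22478493 and 22479245, 1034 kb from a shared region, with 104 and 80 reads and folds of 10.02 and 7.90 in heart replicates 1 and 2. Its percentiles were 17.5 and 23.8, and its summits were 14 bp apart. No region of any kind lay within 672 kb of it, and the nearest globular peak was 710 kb away, in replicate 2. A region at 31837636 to 31838043 was 1047 kb from a shared region, with 33 and 34 reads. One at 31854962 to 31855462 was 1030 kb away, with 35 and 33 reads. Both were weak and had a peak of globular replicate 2 within 14114 bp and 2482 bp.

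Being far from shared sites did not mean being far from every globular peak. A globular peak of either library lay within 10 kb of 1587 members, and none did for 1365 members (46.2%). The median distance to the nearest other region with a globular peak was 8735 bp in the members. It was 1209 bp in flanking regions and 1328 bp in regions of all 4 libraries. Regions of all 4 libraries hold globular peaks, so the rule by itself makes the members' distances longer. Globular replicate 1 had a peak within 10 kb of 1208 members (40.9%), globular replicate 2 of 1062 (36.0%), and both of 683 (23.1%). A globular peak was within 1 kb of 365 members (12.4%), and 24 members (0.813%) overlapped one by less than the 50% of the shorter peak that joins peaks. With 1 bp of overlap joining peaks, the number of members was 2939.

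The nearest region of any kind was most often one called in 1 heart library alone, for 804 members (27.2%, against 16.3% of all regions). Another heart-only region was nearest for 603 members (20.4%, against 12.3% of all regions), and a region of all 4 libraries for 238 (8.06%, against 36.3%). The rule keeps regions of all 4 libraries more than 10 kb from the members and so lowers the last share and leaves more room for the other classes. The shares of all regions still include them, so the higher values at the members cannot be read as an excess. Not every other class was higher, since a globular-only region was nearest for 132 members (4.47%, against 4.62% of all regions). The median distance to the nearest region of any kind was 3242 bp, and 755 members (25.6%) had none within 10 kb.

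Most members stood alone, and the others formed small groups. Linking members within 10 kb of each other left 2230 alone and gave 331 groups of 2 or more, which held 722 members (24.5%). No such share is given here for other classes of regions. Of these groups, 282 held 2 members, 38 held 3 and 11 held 4, the most found. Grouped and single members had like strength, with median percentiles of 61.8 and 74.3 against 61.8 and 73.1 in heart replicates 1 and 2. Grouped members lay in the outer parts in 69.7% of cases and single members in 58.7%.

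Of the groups of 4, the one with the largest summed −log10 p lay on chromosome 19, from 38429747 to 38448046, a stretch of 18.3 kb. Its first member (38429747 to 38430206) had 71 and 50 reads in heart replicates 1 and 2. The second (38433695 to 38434419) had folds of 7.46 and 4.27, and the third (38436982 to 38438226) had 57 and 48 reads. The last (38447467 to 38448046) was the weakest, with 34 and 35 reads. Globular peaks were close to 3 of them: at 136 bp from the first and 2172 bp from the second, and in contact with the third, where a peak of globular replicate 2 lay at 0 bp. The nearest region of all 4 libraries was 52468 bp or more from each member.

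Local background at the members was raised about as often as at all heart sites and, among groups by distance, most often at the most remote members. The caller used a background above the flat level for 9.79% of the members in heart replicate 1 and 7.83% in heart replicate 2, against 7.21% and 5.63% of flanking regions. It was raised in at least 1 heart library in 421 members (14.3%), in 11.3% of flanking regions, in 15.8% of regions of all 4 libraries and in 14.5% of all regions called in both heart libraries. Along distance, the share in heart replicate 1 was 9.15% at 5 to 10 kb, just short of the limit, 8.38% at 10 to 20 kb, 10.2% at 20 to 50 kb, 10.3% at 50 to 100 kb and 15.02% beyond 100 kb. In heart replicate 2 it was 6.39%, 7.33%, 7.85%, 8.90% and 9.09%. Position moved with it, since the share was 11.7% and 8.54% in members of the chromosome middles, where most remote members lie, and 8.63% and 7.36% in outer members (replicates 1 and 2). The part of position in this course was not tested. Which sequences lie there was not analysed here.

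**Figure D4:**
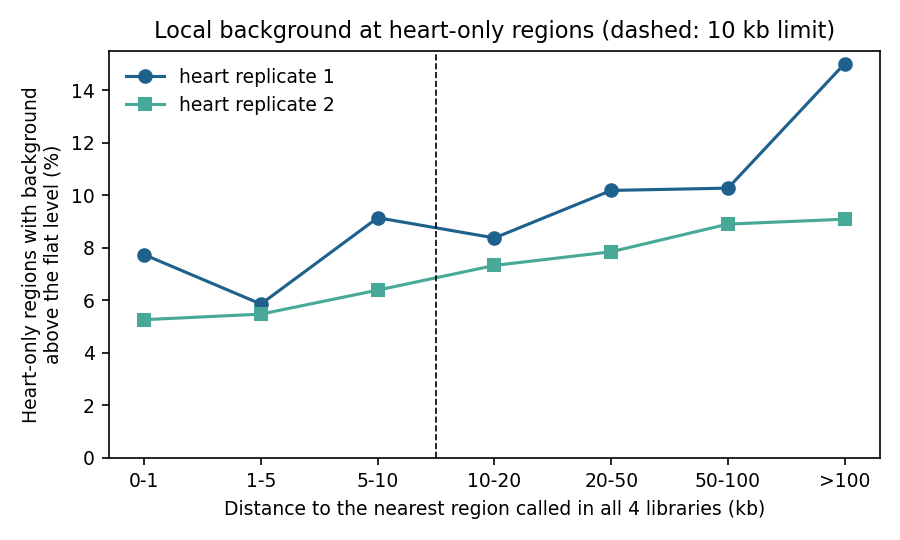
Share of heart-only regions (y axis, %) whose peak rested on a background above the flat level, by distance to the nearest region of all 4 libraries (x axis, kb), with 1 line per heart library and the 10 kb limit dashed. Right of the limit the share runs from 8.38% to 15.02% in replicate 1 and from 7.33% to 9.09% in replicate 2.

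The share of heart sites with no globular call was set beside their distance to shared sites. Regions called in both heart libraries were parted by the distance to the nearest other region of all 4 libraries. Of 11484 such regions more than 10 kb away, 25.7% were heart-only, and of 33693 regions nearer than that, 18.7% were. The share over all regions called in both heart libraries was 20.5%. The heart-only call and the distance are the values that chose the members, so these shares, and those by strength and by library that follow, restate the class in parts. They are no test and support nothing beyond it.

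The heart regions were put into 5 equal groups by their mean heart rank percentile, which are broad, since the share changes widely between them. In the strongest group 0.88% of the far regions (15 of 1705) and 0.191% of the near regions (14 of 7331) were heart-only. In the middle group the shares were 14.9% and 11.5%, and in the weakest group 58.0% (1497 of 2582) and 51.9% (3338 of 6434). The mean difference over the 5 groups was 3.76 percentage points. Leaving out globular replicate 2 gave 2.32 points, and leaving out globular replicate 1 gave 4.93 points.

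The calls of single globular libraries were split in the same way. In the weakest group globular replicate 1 called 26.0% of the far and 29.6% of the near regions, and globular replicate 2 called 33.8% and 41.2%. In the middle group the values were 61.8% and 64.7% in replicate 1 and 79.8% and 84.9% in replicate 2. In the outer chromosome parts alone the mean difference in heart-only share was 3.61 points, and in the middle parts 4.18 points. In the weakest group the difference was 3.51 points in the outer and 11.3 points in the middle parts. Regions are not replicates of a stage, and with 2 libraries a stage no p is given.

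**Figure D5:**
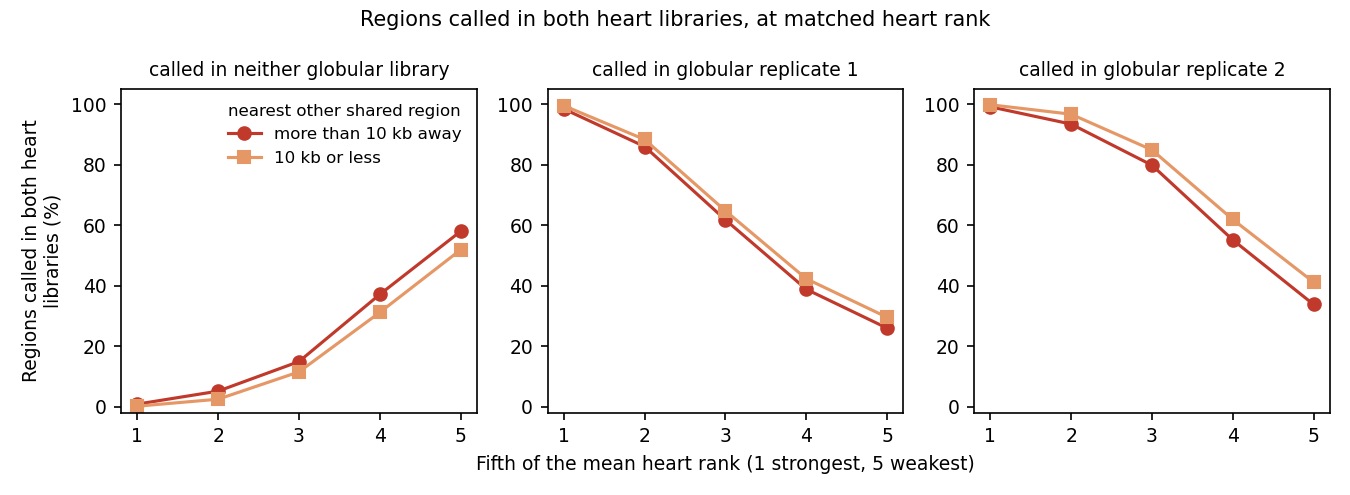
Share of regions called in both heart libraries (y axis, %) that were called in neither globular library (left), in globular replicate 1 (middle) and in globular replicate 2 (right), over 5 equal groups by heart rank (x axis), for regions more than 10 kb from the nearest other shared region and for nearer ones. The far regions are above the near ones on the left, 58.0% against 51.9% in the weakest group, and below them in the other 2 panels.

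The number of members depended on the lists. It was 4439 with a distance limit of 5 kb and 1615 with 20 kb. It was 1936 with an equal number of peaks from each library, and 1783 of the 2952 members overlapped a region of that set. Without heart replicate 2 the rule, then set by 3 libraries, gave 5876 regions.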

How the data were processed

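The deposited peak lists of the 4 ChIP libraries were used, 1 list for each library with no pooling. The submitters' processing notes name MACS2, Bowtie 0.12.7 and SAMtools 0.1.18 and give no settings. In these deposited lists, fold is a ratio over the local background, p and q are given as −log10 values, and the score equals 10 times −log10 q, cut to a whole number. The lowest −log10 q was 2.00 to 2.04. Not given in the sources used here are the genome build, the control and the treatment of duplicates.

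Peaks of different libraries were joined where their overlap was 50% or more of the shorter one, and connected peaks formed a region with the values of its best-ranked peak per library. Reads at a summit and background were solved from fold (tolerance 0.001) and −log10 p (tolerance 0.01, values under 250) with MACS2's Poisson formulas, and reads are given only on the flat background. Named regions are the 10 strongest, the 5 farthest, the 3 on either side of the limit and the largest group. The chosen regions and lists were set with earlier results of these data known. No test runs over regions. The code was run on 44412 simulated peaks, with 2341 distant and 2398 flanking regions made, and it counted 2341 and 2397. Only these totals were compared, and no simulated region was placed near the 10000 bp limit. The run thus checks the code and says nothing about calls near the limit. Python 3.11.15, numpy 2.4.6, pandas 2.3.3, scipy 1.17.1 and matplotlib 3.10.9 were used. Intervals cover counting error only.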

Additional observations from a re-analysis of the deposited data

How the results depend on the processing

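Joining peaks by 1 bp of overlap, or keeping peaks with −log10 q of at least 3, gave 2939 and 2961 distant regions. The differences in rank and width stayed within the spread between heart libraries, and the outer share within its counting interval. The difference in heart-only share at matched rank was 3.78 and 3.75 points there. With summits within 100 bp, limits of 5000 bp and 20000 bp, and equal lists, that difference was 2.56, 3.56, 4.12 and 3.01 points. In the same order the width difference was -10, -0.25, -9 and -8.75 bp. The rank difference was 0 with summits, -3.22 with 20000 bp and -0.366 with equal lists, and the outer share was 64.5% with summits, 66.0% with 5000 bp and 51.9% with 20000 bp. The number was 4439 with 5000 bp, 1615 with 20000 bp and 1936 with equal lists. The cause of these shifts was not tested. Leaving out 1 library at a time gave 2803 to 5876 regions, rank differences of -2.76 to 0 points, outer shares of 58.4% to 61.7%, differences at matched rank of 2.32 to 4.93 points and width differences of -12 to -2.5 bp. With a library left out, the class is set by 3 lists.

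No paired analysis was possible because the labels tie no replicate number across the stages and the one test over libraries, of the rank difference, uses the 2 heart libraries alone. The differences between replicates 1 and 2 in log2 fold had a correlation of -0.04 between stages, across 23640 regions, so the numbers gave no sign of pairing. Depth limits what the absence of a globular call says: it shows absence from a list and no more.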

Other observations

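A set of 7 distant heart-only regions had no region of any kind within 500 kb. It was singled out after its values were seen. A pair lay on chromosome 4, the strong region between 22478493 and 22479245 and another between 31300302 and 31300705. Chromosome 5 had one between 21232562 and 21233397, chromosome 10 between 19103816 and 19104398, and chromosome 11 between 22337072 and 22337418. The last were on chromosome 19 between 16879563 and 16879848 and on chromosome 20 between 12946734 and 12947039. All 7 lay between 27.04% and 64.5% of the extent of their chromosome. Apart from the strong chromosome 4 region, their folds were between 2.54 and 5.08 in heart replicate 1 and between 2.98 and 3.52 in heart replicate 2. The weaker chromosome 4 region and the chromosome 10 region rested on a raised background in both heart libraries, the latter with folds of 2.54 and 2.98. The chromosome 11 region had 39 and 34 reads at its summit, and its summits were 7 bp apart. On chromosome 5 the summits were 419 bp apart, the widest gap of the 7.

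Members more than 100 kb from a shared region were unevenly spread. They were 29 of the 146 members on chromosome 1 and 4 of the 148 on chromosome 9. Chromosomes 10 and 18 held 19 each, of 172 and 171 members. Such members can lie only in long stretches without shared regions, and the extent of these stretches on each chromosome was not measured.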
